A study of Homo sapiens with 12 samples.

Results

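RNA of human Tet21N neuroblastoma cells was compared between an siRNA against MondoA and a non-specific siRNA, both in cells grown without doxycycline, the state labelled Myc-on. The 6 arrays were chosen by their titles, 3 replicates (A, B and C) of siMONDOA_NT and 3 of siCONTROL_NT, out of 12 arrays in the study. The other 6 arrays carry the same siRNA pair in cells given doxycycline at 1 microgram/ml for 3 days, the state labelled Myc-off. Both groups used here had 0 microgram/ml of doxycycline, the same DMEM with 10% serum, and a transient transfection. Expression was measured on Illumina bead arrays, on which each probe gives a brightness and a detection p-value. Of the genes with a probe on the array, 12178 were detected on at least 3 of the 12 arrays and were tested. All levels below are background-corrected, quantile-normalized log2 intensities, and a difference of 1 on this scale is a 2-fold change.

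MondoA, encoded by MLXIP, is a glucose-sensing transcription factor that pairs with MLX and binds carbohydrate response elements, which hold a pair of E-box-like half-sites. It belongs to the same extended basic helix-loop-helix network as the Myc and MAX proteins. TXNIP, which restrains glucose uptake, and its relative ARRDC4 are the best known genes it switches on. Tet21N was made from the SH-EP neuroblastoma line and carries an N-Myc transgene that doxycycline represses. The question of the study, by its title, is whether cells with deregulated Myc depend on MondoA for their metabolism and growth as tumours.

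Neither the knockdown nor the transgene could be checked from its own probe. The single MLXIP probe was above background on 1 of the 12 arrays, a siControl array with Myc on (5.27), and the MYCN probes on 0 of 12. ARRDC4 was above background on 1 of 12, also a siControl array with Myc on. The labels name neither the number of siRNAs nor the origin of the replicates. P-values therefore measure the spread among these arrays, which may be technical, and effects of an siRNA on other transcripts cannot be told apart from loss of MondoA. The line is a single transfected clone. In RNA of bulk cells, fewer cells of a type and less RNA per cell cannot be told apart.

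The arrays within a group correlated at 0.988 to 0.990 over the genes tested, and arrays of the 2 groups at 0.971 to 0.973. Between 18521 and 19510 probes were detected per array. Of 22 markers of the mesenchymal state that SH-EP cells are known for, 19 were tested and 15 were detected on all 6 arrays. Of 18 noradrenergic neuroblastoma genes, 9 were tested and 4 were detected on all 6 arrays, and PHOX2A, TH and DBH were among those not tested. Markers of other cells were mostly below the detection filter: 4 of 12 blood genes, 1 of 9 endothelial genes, 4 of 9 epithelial genes and 2 of 7 Schwann cell or melanocyte genes were tested. PTPRC, VWF, CDH5, CDH1 and SOX10 were among those not tested. Of the tested ones, 1 blood and 2 epithelial genes were detected on all 6 arrays. CD14 was called higher (0.66), and CD68 (-0.47) and the epithelial MUC1 (-1.13) were called lower. Another CD68 probe was called the opposite way, and with its probes averaged CD68 changed by 0.37 and did not pass. The mean level of the tested blood markers was 6.09 to 6.25 on the siMondoA arrays and 6.17 to 6.43 on the siControl arrays, and that of the epithelial markers 5.29 to 5.44 and 5.54 to 5.79. Their part in the results was not tested.

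The promoter of TXNIP is shown because this gene had the largest fall of all 12178 genes and because its promoter holds the kind of site MondoA is known to bind. The window runs from 250 bases before to 50 bases after the RefSeq start, at chr1:145996530-145996829 on the minus strand of GRCh38.p14. Capitals mark the only match in it to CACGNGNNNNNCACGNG, a pair of E-box-like half-sites with a 5-base spacer, which begins 88 bases before the start site.
TXNIP promoter: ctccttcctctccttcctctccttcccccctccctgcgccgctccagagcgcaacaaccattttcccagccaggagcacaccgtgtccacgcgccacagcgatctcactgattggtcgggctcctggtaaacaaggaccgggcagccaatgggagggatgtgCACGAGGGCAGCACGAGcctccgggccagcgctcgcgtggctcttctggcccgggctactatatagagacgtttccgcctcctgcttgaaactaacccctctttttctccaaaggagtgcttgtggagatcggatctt
This pair was searched on both strands of 35116 RefSeq promoter windows and was found in 20, or 0.057%. A window of 15 tested genes held it, of which 4 were called higher, 2 were called lower and the rest were not called. Over all genes tested 12.4% were called higher and 12.5% lower, and whether counts on so few genes differ from these shares was not tested. Beside TXNIP, the lower gene was MYL5, a myosin light chain gene (-1.12 ± 0.17), and its window overlaps that of ATP5ME, which holds the same match and did not pass the test (0.18, adjusted p = 0.18). STX12, a syntaxin of endosomes, was among the 4 higher genes (0.61 ± 0.10). The simpler E-box CACGTG lay in 10.1% of the windows of called higher genes, 8.82% of those of called lower genes and 9.29% of those of genes not called, against 7.26% of all windows. A match is a description of the letters in the window only.

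TXNIP read 11.26, 11.29 and 11.36 on the siControl arrays and 7.88, 7.85 and 8.14 on the siMondoA arrays. The groups lay far apart, and the fall was 10.2-fold (log2 -3.35 ± 0.12 SE, n = 3 and 3, adjusted p = 8.6e-09). Most other genes reported as MondoA or ChREBP targets did not share this fall. Of 13 tested with TXNIP, 3 fell, 2 rose and 8 did not pass, with a median of 0.02 against 0.03 over all genes. Without any 1 array other than siMondoA replicate 3, 1 rose in place of 2, and with arrays scaled to the median of all probes 4 rose and 2 fell. Over all genes 24.8% were called at an adjusted p below 0.05, 12.4% higher and 12.5% lower. The counts of every gene list below are to be read against these shares, and a list near them shows no excess of calls. ACACB, an acetyl-CoA carboxylase, went from 6.35, 6.39 and 5.93 to 5.10, 5.43 and 5.64. PFKFB4, a regulator of glycolytic flux, went the other way, from 8.60, 8.35 and 8.42 to 9.56, 9.58 and 9.41 (1.06 ± 0.11, adjusted p = 2.6e-05). HK2, KLF10 and BHLHE40 had changes of 0.35, 0.49 and -0.26 that did not pass.

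Glucose transporters were mostly lower. Of 9 transporters and hexokinases tested, 5 fell and 1 rose (median -0.63), and with arrays scaled to the median of all probes 3 fell and 2 rose. SLC2A3, the high-affinity neuronal-type transporter, read 10.69, 10.59 and 10.64 with siControl and 9.65, 9.63 and 9.47 with siMondoA. This was a 2.08-fold fall (adjusted p = 3.3e-05) with no overlap. SLC2A10 and SLC2A12 changed by -1.09 ± 0.24 and -0.99 ± 0.16. SLC2A1, the main basal transporter, changed by -0.66 ± 0.11 (adjusted p = 0.001), a call that was lost under that scaling (-0.41, adjusted p = 0.068). The gene that rose was HKDC1, a hexokinase-domain protein, from 6.41, 6.61 and 6.70 to 7.50, 7.90 and 7.87. In glycolysis itself 5 of 19 genes rose and 1 fell (median 0.14), but 2 rose without siControl replicate 1, siControl replicate 2 or siMondoA replicate 2, and 3 without siControl replicate 3 or siMondoA replicate 1. TIGAR, a fructose bisphosphatase that slows glycolysis, rose by 0.86 and ALDOC, an aldolase, fell by 0.63. Of 25 genes of pyruvate entry and the TCA cycle 3 rose and 1 fell, with 1 higher without siControl replicate 3, and with arrays scaled to the median of all probes 7 rose and 0 fell. UCP2, a carrier that exports carbon compounds from mitochondria, read 7.29, 7.17 and 7.32 against 5.39, 5.53 and 5.73, and PCK2, the mitochondrial PEP carboxykinase, fell by 1.75 ± 0.17.

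In all, 1504 genes were higher and 1522 lower with siMondoA at an adjusted p below 0.05 in limma. Of the 3026 called genes, 354 (2.91% of those tested) differed at least 2-fold, 144 higher and 210 lower, and 33 at least 4-fold, 23 higher and 10 lower. The median size of a called change was 0.60. The siRNA groups did not overlap for 40.4% of genes. The share of calls that were higher was 49.7%. With each array scaled instead to the median of all its probes, 2890 genes were called and 75.4% of them were higher, since that scaling raised the median change of all genes from 0.03 to 0.16; with arrays scaled to the median of the genes tested the share was 50.7%. Calls were least frequent among dim genes, with 12.4% of 3374 genes of mean level below 6 against 31.9% of 3295 genes between 8 and 10.

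**Figure D1:**
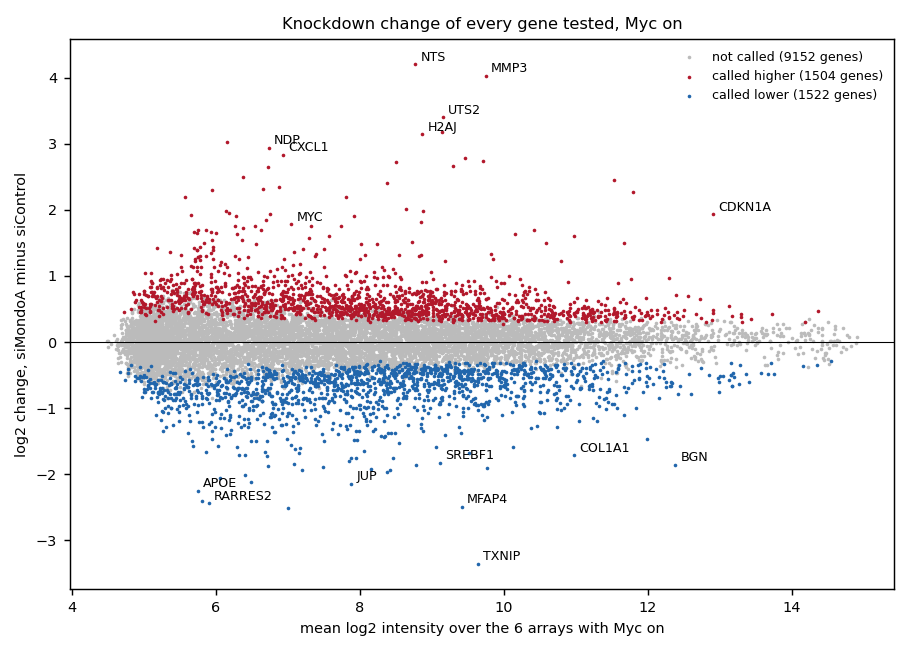
Log2 change (siMondoA minus siControl, Myc on) of each of 12178 genes against its mean log2 intensity over the 6 arrays. Red and blue points are the 1504 genes called higher and the 1522 called lower; NTS and MMP3 lie highest at 4.20 and 4.03, TXNIP lowest at -3.35.

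**Figure D2:**
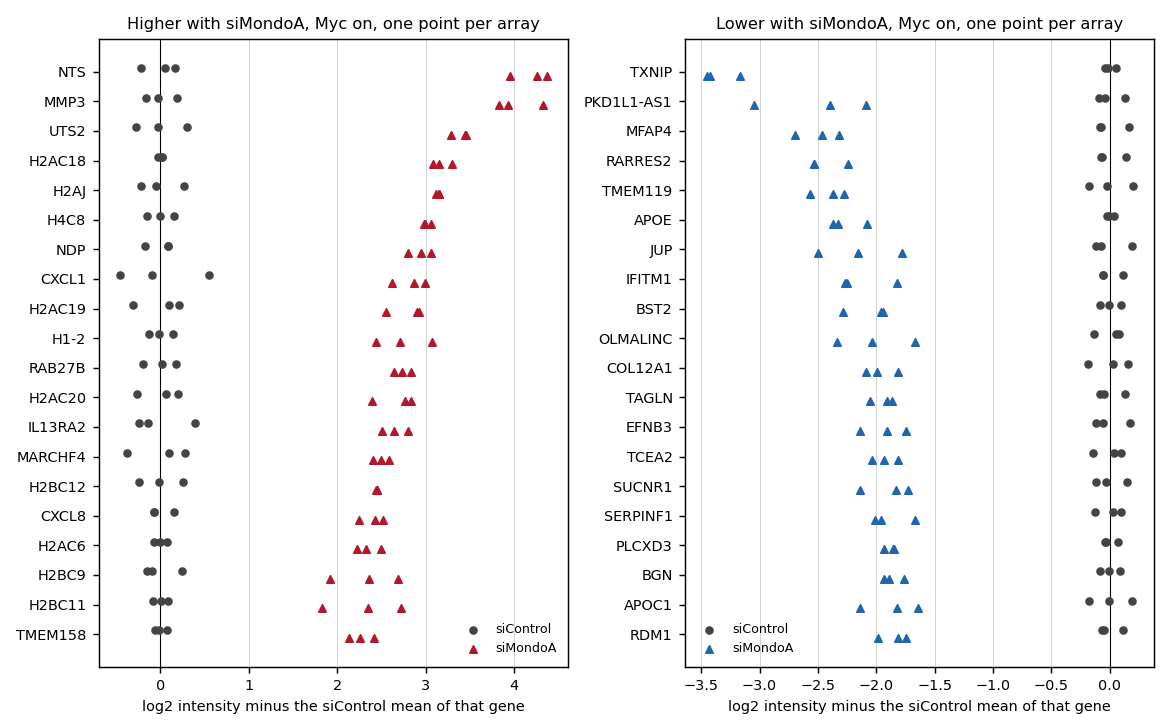
The 20 called genes with the largest rise and the 20 with the largest fall, each array as a point, as log2 intensity minus the mean of the 3 siControl arrays (circles siControl, triangles siMondoA). The 40 genes were drawn only from those whose 3 siMondoA arrays all lay above or all below the 3 siControl arrays. The separation of the points was therefore set by the selection.

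The gene with the largest rise of those tested was NTS, which encodes the neuropeptide neurotensin. It read 6.45, 6.72 and 6.84 with siControl and 10.93, 10.63 and 11.04 with siMondoA. The rise was 18.4-fold (log2 4.20 ± 0.18, adjusted p = 1.9e-08), with every siMondoA array above every siControl array. NTSR1, the neurotensin receptor, was not above background on any siControl array and was detected on all 3 siMondoA arrays (6.65, 6.71 and 6.63), at least 2.8-fold higher. NTSR1 passed the detection filter through those 3 arrays alone, so no p-value is given for it. UTS2, urotensin 2, a vasoactive peptide, went from 7.43, 7.75 and 7.18 to 10.90, 10.91 and 10.74. A further UTS2 probe gave 3.34, and the third, above background on 1 siMondoA array only, gave 0.40 and did not pass. The granins SCG2 and CHGB, which help to pack peptides into dense-core vesicles, rose too. SCG2 changed from 8.01, 7.79 and 7.84 to 9.86, 9.86 and 9.89, and CHGB was detected on the siMondoA arrays only (at least 1.36-fold higher). RAB27B, a GTPase of secretory vesicle docking, rose 6.64-fold. Of the 11 peptide, hormone and processing genes tested 5 rose and 1 fell (median 0.53). The fall was in PAM, the peptide amidating enzyme, at -0.56, a call lost with arrays scaled to the median of all probes (-0.39, adjusted p = 0.093). VGF (0.53), NMU (0.47) and CPE (-0.06) did not pass.

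Some chemokines and receptor ligands rose, and others fell. CXCL1, a neutrophil attractant, read 5.42, 6.06 and 5.06 against 8.38, 8.51 and 8.13. Its siControl arrays spread more widely than its siMondoA arrays without reaching them. CXCL8, of the same class, went from 7.10, 7.10 and 7.33 to 9.60, 9.42 and 9.70 (5.27-fold, adjusted p = 8.2e-07). IL32, an intracellular cytokine, moved the other way, from 8.72, 8.57 and 8.67 to 7.11, 7.25 and 7.15. CX3CL1 (-1.24 ± 0.23) and CCL2 (-0.88) fell as well, so that of 20 chemokines and cytokines 3 rose and 6 fell (5 and 3 with arrays scaled to the median of all probes). IL6 and IL1B were at or near background and changed by -0.13 and -0.03, not past the test. In the feedback genes of NF-kappaB, the factor that commonly drives these chemokines, 6 of 13 fell and 2 rose (median -0.23), among them RELB (-0.57) and NFKB2 (-0.52) lower and NFKBIB (0.87) higher. With arrays scaled to the median of all probes 1 of these fell and 2 rose. The higher count was 1 without siControl replicate 2, siControl replicate 3 or siMondoA replicate 2. Among receptor ligands, NDP, which encodes the Wnt-pathway ligand norrin, read 5.35, 5.09 and 5.35 against 8.06, 8.33 and 8.21. ANGPTL4, an inhibitor of lipoprotein lipase, rose 4.59-fold on its brightest probe and by 0.83 and 0.19 (adjusted p = 0.39) on the others, and TGFA, an EGF receptor ligand, 3.59-fold. IL13RA2, a decoy receptor for interleukin 13, rose 6.28-fold. The receptors PDGFRA (-1.22 ± 0.22) and PDGFRB (-1.30 ± 0.12) fell, with PDGFRB going from 11.21, 11.06 and 10.78 to 9.81, 9.71 and 9.64.

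Among matrix genes, 3 metalloproteinases rose and 2 fell, and more structural components fell than rose. MMP3, stromelysin 1, read 7.91, 7.70 and 7.57 with siControl and 11.66, 12.05 and 11.56 with siMondoA (16.4-fold, adjusted p = 1.9e-08). MMP14, a membrane-bound collagenase, rose 2.39-fold, and MMP1, interstitial collagenase, was detected only on the siMondoA arrays (at least 1.73-fold higher). MMP11, a further stromelysin, was 1 of the lower ones, by -0.75. TIMP2, an inhibitor of such enzymes, fell from 12.17, 12.20 and 12.26 to 11.13, 11.15 and 11.06, while its dimmer probe, detected on all 6 arrays, gave 0.36 (adjusted p = 0.053). Over the 20 proteases and inhibitors tested 5 rose, 3 fell and 12 did not pass (median 0.13).

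Of 30 collagen and structural matrix genes, 15 fell and 2 rose, with a median of -0.45, and 12 fell and 2 rose with arrays scaled to the median of all probes. COL1A1, the main fibrillar collagen chain, went from 11.72, 11.94 and 11.80 to 10.14, 10.02 and 10.18 (3.26-fold lower, adjusted p = 2.6e-07). COL12A1, a fibril-associated collagen, fell 3.91-fold. The basement-membrane genes COL4A2 and NID1 changed by -1.0 and -1.17, and the microfibrillar COL6A1 and COL6A2 by -1.12 and -1.15. MFAP4, a matrix glycoprotein, had the largest fall of the list, from 10.58, 10.82 and 10.57 to 8.34, 8.19 and 7.96. BGN, the proteoglycan biglycan, was bright on every array and fell clear of its controls (13.40, 13.30 and 13.23 against 11.38, 11.42 and 11.55). The 2 genes that rose were LOX, the collagen cross-linking enzyme (0.96), and TNC, tenascin C (0.72). FN1, fibronectin, did not pass (0.02), and COL3A1 did not either (-0.07). TAGLN, an actin-binding protein of contractile cells, fell 3.84-fold, and JUP, plakoglobin of cell junctions, went from 9.14, 8.87 and 8.83 to 6.45, 7.17 and 6.79, with -0.52 and -0.40 on 2 probes near background that did not pass.

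The replication-dependent histone genes, whose mRNAs normally end in a stem-loop without a poly(A) tail and peak in S phase, rose together. Of 69 on the array, 38 passed the detection filter and were tested, and 19 of these were detected on all 6 arrays. Of the 38 tested, 28 rose and 0 fell, with a median of 1.33, and 12.4% of all genes were higher. Histone genes at background on nearly all arrays could not enter this count, while a gene dim with siControl could enter through arrays where it was high. The rise spanned every core family and the linker histones. In limma 7 of 10 H2A genes, 8 of 9 H2B genes, 6 of 9 H3 genes, 5 of 7 H4 genes and 2 of 3 H1 genes were called, and so were 19 of 27 genes on chromosome 6 and 9 of 11 on chromosome 1. H2AC18 read 7.52, 7.56 and 7.56 against 10.84, 10.70 and 10.63 (9.03-fold, adjusted p = 8.6e-09), and its other probe gave 3.58. H1-2 went from 8.21, 8.33 and 8.48 to 11.05, 11.41 and 10.78. H4C8 was below background with siControl and at 7.63, 7.64 and 7.70 with siMondoA, at least 5.58-fold higher. Of the 82 genes detected on all 3 siMondoA arrays and on 0 siControl arrays, 56 were called and 10 were such histones. Of the 48 genes detected on 0 siMondoA and 3 siControl arrays, 38 were called and 0 were such histones. Among all 12178 genes tested, 38 were such histones. The first class was set by detection with siMondoA alone, so its count adds no separate sign of a rise. Histone genes are near-identical copies, so the assignment of a signal to H2AC18 rather than H2AC19, for example, is uncertain. MessageAmp labelling primes from poly(A) and so is meant to read tailed transcripts. Which form of a histone transcript these values reflect was not tested.

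**Figure D3:**
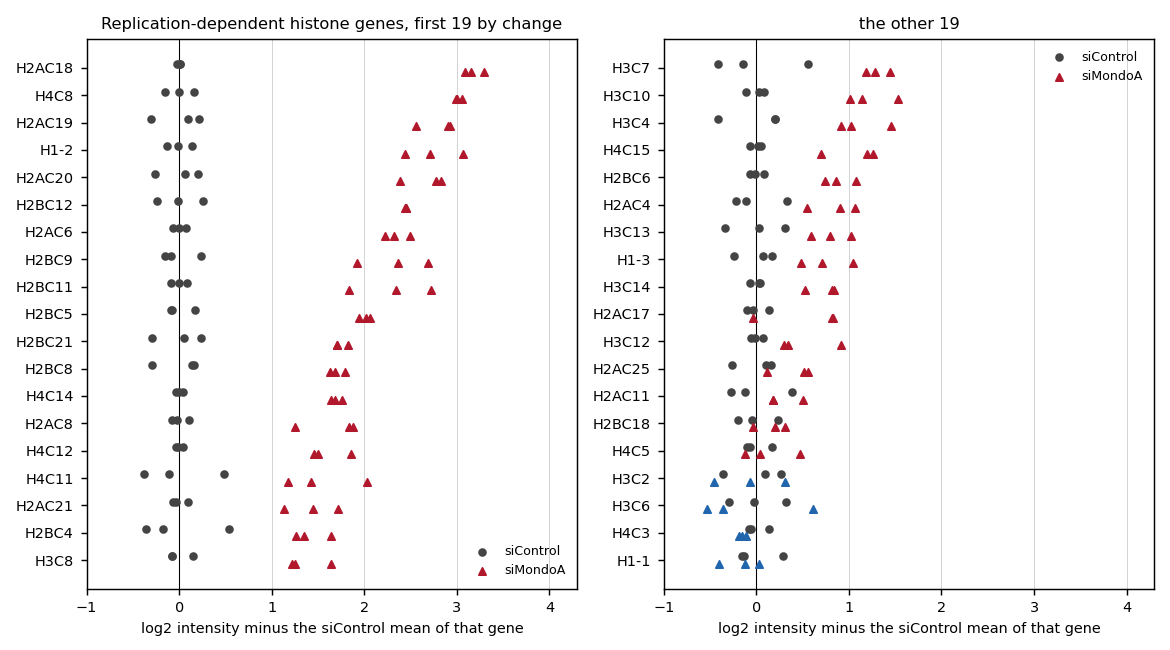
The 38 replication-dependent histone genes in order of change, each array as a point, as log2 intensity minus the mean of the 3 siControl arrays (circles siControl, triangles siMondoA, blue where the mean was lower). In the left panel every siMondoA point lies above every siControl point of its gene.

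Several of these genes lie head to head on a shared promoter. In RefSeq, 11 H2A and H2B pairs have overlapping windows on opposite strands, and in 3 of the 4 pairs with both genes tested, both rose. In the remaining pairs a gene or both were not tested. Taken singly, 7 of 10 H2A genes and 8 of 9 H2B genes rose. Whether paired genes rose together more often than these shares would give was not tested. The promoter shared by H2AC20 (2.66 ± 0.15) and H2BC21 (1.75 ± 0.15) is printed as the window of H2AC20, at chr1:149886668-149886967 on the plus strand of GRCh38.p14, beside that of H2BC12 (2.45 ± 0.13), at chr6:27146809-27147108 on the minus strand. Capitals mark the octamer ATTTGCAT, the CCAAT box and the TATA box TATAAA, on either strand.
H2AC20 promoter: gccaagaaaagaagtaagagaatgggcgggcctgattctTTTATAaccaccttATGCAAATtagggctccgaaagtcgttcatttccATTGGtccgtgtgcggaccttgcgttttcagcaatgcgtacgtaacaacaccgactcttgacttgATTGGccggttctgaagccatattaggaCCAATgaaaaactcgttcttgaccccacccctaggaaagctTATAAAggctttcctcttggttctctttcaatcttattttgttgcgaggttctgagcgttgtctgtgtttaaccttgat
H2BC12 promoter: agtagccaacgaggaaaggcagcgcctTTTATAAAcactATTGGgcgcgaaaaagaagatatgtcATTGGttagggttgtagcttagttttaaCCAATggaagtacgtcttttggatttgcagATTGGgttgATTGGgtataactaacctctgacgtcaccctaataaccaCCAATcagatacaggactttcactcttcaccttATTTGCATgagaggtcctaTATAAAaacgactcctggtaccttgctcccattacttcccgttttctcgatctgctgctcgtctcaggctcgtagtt
The octamer, a known element of H2B promoters, was in 8 of 10 windows of the H2B genes called higher, and in 1.77% of all windows. In the H2AC20 window it is read on the opposite strand, toward H2BC21. The CCAAT box was in 83.9% of the windows of histone genes called higher and in 34.6% of all windows, and TATAAA in 77.4% and 11.5%. None of these 31 windows held CACGTG. Windows of histone genes that did not rise were not counted apart, and 8 of the 9 H2B genes tested rose. These shares therefore describe histone promoters and do not set the genes that rose apart from the others. In the pair that differed, H2BC11 was detected only with siMondoA (at least 3.76-fold higher) and H2AC11 did not pass (0.29).

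Among 10 tested factors that make or end histone transcripts, such as SLBP, which binds the stem-loop (-0.02), and LSM11 (-0.12), 0 rose and 1 fell, and 0 fell when any 1 array was left out. With arrays scaled to the median of all probes 1 rose and 1 fell. DNA replication genes gave 1 higher and 3 lower of 25, with 1 lower without siControl replicate 2, siControl replicate 3 or siMondoA replicate 3. The higher one was lost without siControl replicate 1, siControl replicate 3, siMondoA replicate 1 or siMondoA replicate 3. MCM2 was at -0.31 and CDC6 at -0.20, neither past the test. Of 25 mitosis genes 24.0% were called, near the 24.8% of all genes. Among these 25, 2 rose and 4 fell (median -0.14, which turned to 0.08 with arrays scaled to the median of all probes). Without siControl replicate 1 it was 0 and 2, without siControl replicate 3 or siMondoA replicate 1 0 and 3, without siMondoA replicate 2 1 and 3, and without siMondoA replicate 3 1 and 2. KIF20A, a spindle motor, fell by 0.56, a call lost under that scaling (-0.32, adjusted p = 0.17). H2AJ, a replication-independent H2A variant, rose together with the replication-dependent genes, from 7.08, 7.56 and 7.24 to 10.44, 10.41 and 10.44, while H2AZ1 (0.12) and H3-3A (0.13) did not pass.

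Genes that respond to the oxysterol receptor LXR fell. Of 11 LXR targets and lipid efflux genes 8 fell and 1 rose (median -1.02). APOE, the lipid carrier apolipoprotein E, read 6.87, 6.85 and 6.91 with siControl and was not above background on any siMondoA array (at least 3.3-fold lower, adjusted p = 5.8e-08). Its neighbour APOC1 went from 9.70, 9.90 and 9.53 to 7.57, 8.07 and 7.89. NR1H3, which encodes LXR alpha itself, fell from 9.09, 9.09 and 9.04 to 8.17, 7.83 and 7.94 (2.13-fold). LPCAT3, a phospholipid remodelling enzyme, and PLTP, a phospholipid transfer protein, changed by -1.02 and -0.79. The exceptions were SMPDL3A (0.90), which rose, and the cholesterol exporter ABCG1 (-0.42), which did not pass.

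SREBF1, the master regulator of fatty acid synthesis and also an LXR target, went from 10.13, 9.96 and 9.97 to 8.22, 8.13 and 8.22 (3.56-fold lower, adjusted p = 6e-07). Its 3 siMondoA arrays lay within 0.09 of each other. SCD, the stearoyl-CoA desaturase, fell 2.77-fold, from 12.78, 12.71 and 12.68 to 11.35, 11.05 and 11.35. The rest of fatty acid synthesis did not follow as a group. Of 16 genes 4 fell and 0 rose, and 1 rose without siControl replicate 3 or siMondoA replicate 1. With arrays scaled to the median of all probes 4 rose and 3 fell, and without background correction 3 rose and 7 fell. FASN (-0.31) and ACLY (0.23) did not pass. In cholesterol synthesis and uptake 9 of 19 genes fell and 1 rose (median -0.36), and with arrays scaled to the median of all probes 2 fell. Without siMondoA replicate 2 the count of lower genes was 5. DHCR7, the last enzyme of the pathway, read 9.65, 9.58 and 9.45 against 8.06, 8.33 and 8.22. INSIG1, which holds SREBP proteins in the endoplasmic reticulum, fell by 1.28, while SC5D, a sterol desaturase, rose by 0.78 and SREBF2 did not pass (-0.05).

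Complement genes and part of the antigen presentation genes were lower. Of 11 complement genes 7 fell and 2 rose (median -0.87). The higher count was 0 without siControl replicate 2 and 1 without any 1 of the other arrays but siMondoA replicate 3. CFB, factor B, went from 7.93, 7.88 and 8.16 to 6.08, 6.58 and 6.29, and C1S, a classical-pathway protease, from 7.62, 7.84 and 7.71 to 6.32, 6.18 and 6.25. C3, the central component, was not above background on the siMondoA arrays (at least 1.73-fold lower), and SERPING1, the C1 inhibitor, rose by 0.53. Among 16 HLA class I and peptide loading genes 6 fell and 0 rose (median -0.38). TAPBP, tapasin of the loading complex, read 10.31, 10.28 and 10.44 against 8.60, 8.90 and 8.53, and its dimmer probes gave -0.59 and -0.50, neither past the test. HLA-B and HLA-F changed by -1.52 and -1.38, a pair whose probes may share signal with other HLA genes, and B2M (-0.32) did not pass.

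Interferon-stimulated genes gave 7 lower and 0 higher of 24, with a median of -0.12 that turned to 0.03 with arrays scaled to the median of all probes, where 3 were lower. The largest falls were in 2 membrane proteins that restrict viruses. IFITM1 went from 7.48, 7.65 and 7.48 to 5.71, 5.29 and 5.27, and BST2, tetherin, from 7.0, 7.08 and 7.18 to 5.13, 4.80 and 5.14. OAS3, an antiviral sensor, changed by -0.89. The classical reporters IFIT1 (-0.12), ISG15 (0.11) and IFI44L (-0.04) did not pass. RARRES2, the chemoattractant chemerin, was detected on all 3 siControl arrays (7.05, 7.06 and 7.26) and on 0 siMondoA arrays, at least 3.92-fold lower.

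Of 20 p53 target genes 10 rose and 2 fell (median 0.39), with 7 and 1 without siMondoA replicate 1. CDKN1A, the cyclin-dependent kinase inhibitor p21, read 11.97 and 11.83 on 2 siControl arrays, slightly more on the third, and 13.89, 13.85 and 13.85 with siMondoA (3.81-fold, adjusted p = 5.8e-08), and its dimmer probe was above background with siMondoA but on 0 siControl arrays. TP53I3, an oxidoreductase, rose by 1.32 ± 0.13, TP53INP1 by 0.97 ± 0.13 and RRM2B, a ribonucleotide reductase subunit, by 0.77. MDM2, the p53 ubiquitin ligase (0.19), BBC3 (0.16) and FAS (-0.12) did not pass, and CCNG1, cyclin G1, fell from 11.04, 11.04 and 10.83 to 9.87, 10.05 and 10.28.

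MYC, the cellular relative of the N-Myc transgene, rose. It read 6.31, 5.89 and 6.26 with siControl and 8.12, 7.91 and 7.76 with siMondoA (3.43-fold, adjusted p = 2e-06) on its brightest probe. A dimmer probe was not above background on any siControl array. Of the 9 genes of the Myc, MAX, MXD and MLX network tested, MYC was the one that was called, and MLX (0.24), MAX (0.02) and MNT (-0.20) did not pass. Of 24 nucleolar and ribosome biogenesis genes, a class that Myc proteins are known to drive, 7 rose and 0 fell (median 0.21), led by RRS1 (0.62). The count was 4 without siControl replicate 1, siControl replicate 3 or siMondoA replicate 2, and 11 with arrays scaled to the median of all probes. Mitochondrial ribosomal proteins gave 14 higher and 1 lower of 76 (median 0.12), with 8 higher without siControl replicate 2, 9 without siMondoA replicate 1 and 26 under that scaling. The lower one was lost without siControl replicate 2, siControl replicate 3, siMondoA replicate 2 or siMondoA replicate 3. Cytosolic ribosomal proteins gave 3 higher and 3 lower of 72, with 1 lower without siControl replicate 1. The shares called were 19.7% of the mitochondrial and 8.33% of the cytosolic genes, against 24.8% of all genes.

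Among stress and protein-folding genes, 9 of 20 cytosolic chaperones rose and 0 fell (median 0.27), and 7 of 27 proteasome subunits rose and 0 fell (median 0.20). These are 45.0% and 25.9% higher, against 12.4% of all genes. Without siControl replicate 2 the counts of higher genes were 4 chaperones and 3 proteasome subunits, and without siMondoA replicate 1 they were 5 and 4. Without siControl replicate 1, 4 proteasome subunits rose. CCT5, a subunit of the TRiC folding chamber, went from 6.70, 6.78 and 7.07 to 7.71, 7.72 and 8.03, and HSPH1, a large heat shock protein, from 10.39, 10.43 and 10.50 to 11.33, 11.20 and 11.52. The ATF4 amino acid stress genes were split, with 7 of 18 lower and 3 higher. Without siControl replicate 1, siControl replicate 2, siMondoA replicate 1 or siMondoA replicate 2 the lower count was 4, and with arrays scaled to the median of all probes 3 were lower and 4 higher. CBS, of transsulfuration, fell 2.69-fold and ASNS, asparagine synthetase, 1.76-fold (its dimmer probe gave -0.32 and did not pass), whereas SESN2, a stress-inducible inhibitor of mTORC1, rose by 1.03 ± 0.23. Of 4 metallothioneins, which bind zinc and copper, MT2A fell from 11.81, 11.78 and 11.83 to 10.77, 10.81 and 10.41 and MT1X by 0.99. HMOX1, heme oxygenase, rose 1.99-fold.

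Regulators of cell identity moved in both directions. ID1, ID2 and ID3, inhibitors of helix-loop-helix factors and common BMP targets, rose by 1.50, 1.30 and 1.60, with ID3 going from 10.10, 10.13 and 10.28 to 11.89, 11.78 and 11.63. Of 15 TGF-beta and BMP response genes 6 rose and 2 fell, SMAD3 (-0.69) and LTBP2 (-1.31) being the lower ones. Of 19 mesenchymal neuroblastoma genes 7 rose and 2 fell. SNAI2, a mesenchymal transcription factor, read 6.58, 6.68 and 6.24 against 8.05, 8.09 and 8.08, and NOTCH3, a receptor of the same identity, 7.22, 6.82 and 6.48 against 4.68, 5.92 and 5.69. Of 12 neuronal structure genes 7 rose and 2 fell (median 0.51). GAP43, a growth-cone protein, rose by 1.16 ± 0.21, SNAP25, a synaptic fusion protein, by 0.96 ± 0.18 and NEFL, the light neurofilament, by 0.87, whereas MAP2, a dendritic microtubule protein, fell by 1.09. EOMES, a T-box factor, was detected on all 3 siMondoA arrays and on 0 siControl arrays (at least 2.7-fold higher). Semaphorins, the axon guidance ligands, and their receptors gave 8 lower and 1 higher of 21. Without siControl replicate 2, siControl replicate 3 or siMondoA replicate 2 the lower count was 5, and with arrays scaled to the median of all probes 4 were lower and 2 higher. SEMA3F changed by -1.07 and SEMA7A, the higher one, by 1.04. The clock factors CLOCK (0.98 ± 0.21) and BMAL1 (1.26 ± 0.29) rose, in a list of 12 with 6 higher and 2 lower. Without siMondoA replicate 1 there were 3 higher and 1 lower, without siControl replicate 3 4 and 1, and the lower count was 0 without siControl replicate 1, siControl replicate 2 or siMondoA replicate 2.

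Growth-factor feedback genes did not move as one. Of 22 ERK feedback and immediate early genes 7 rose and 3 fell. EGR1 went from 7.67, 7.39 and 7.47 to 5.45, 6.0 and 6.11 and IER3, an early survival gene, from 8.33, 8.23 and 8.16 to 6.30, 7.08 and 6.88, while DUSP4, a MAP kinase phosphatase (1.14), and PHLDA1 (1.33) rose. SPRY1, a Sprouty inhibitor of receptor signalling, fell 2.67-fold. CCN1, a matricellular protein and YAP target, read 9.70, 9.92 and 9.90 against 8.26, 8.05 and 8.48.

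Probes for small nucleolar and Cajal body RNAs were lower more often than higher, while those for microRNA genes showed no such lean. Here too the labelling is meant to read tailed transcripts, and which form these probes read was not tested. Of 147 small nucleolar and Cajal body RNAs, 45 were lower and 6 higher, with a median of -0.25 (30 lower and 8 higher with arrays scaled to the median of all probes). SNORD12C (-1.20) and SNORD80 (-1.01) had the largest falls, and SNORD84 (0.91) the largest rise. These short RNAs lie in introns of host genes, and of 16 host transcripts 2 fell and 1 rose, with SNHG4 at -0.86 (1 fell and 2 rose under that scaling). Probes annotated to microRNA genes gave 7 lower and 5 higher of 54 (median 0.00). MIR214 went from 7.12, 6.68 and 6.67 to 5.35, 5.33 and 5.08, and its neighbour on chromosome 1, MIR199A2, and MIR21 on chromosome 17 were detected on all siControl arrays and on 0 siMondoA arrays (at least 1.45-fold and 1.4-fold lower). Whether such a probe reads the primary transcript or the hairpin was not stated by the annotation.

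Of the called genes, 905 were read by more than 1 probe. In 728 of them, or 80.4%, the other probes changed in the same direction, in 334 another probe was called the same way, and in 14 another probe was called the opposite way. A dimmer probe that did not pass is given above beside the genes it concerns, and further cases were RAB27B (-0.01 on a probe detected on 1 siMondoA array), COL6A2 (-0.34), HLA-F (-0.20), MAP2 (-0.18), TP53I3 (0.47) and C1S (-0.25).

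**Figure D4:**
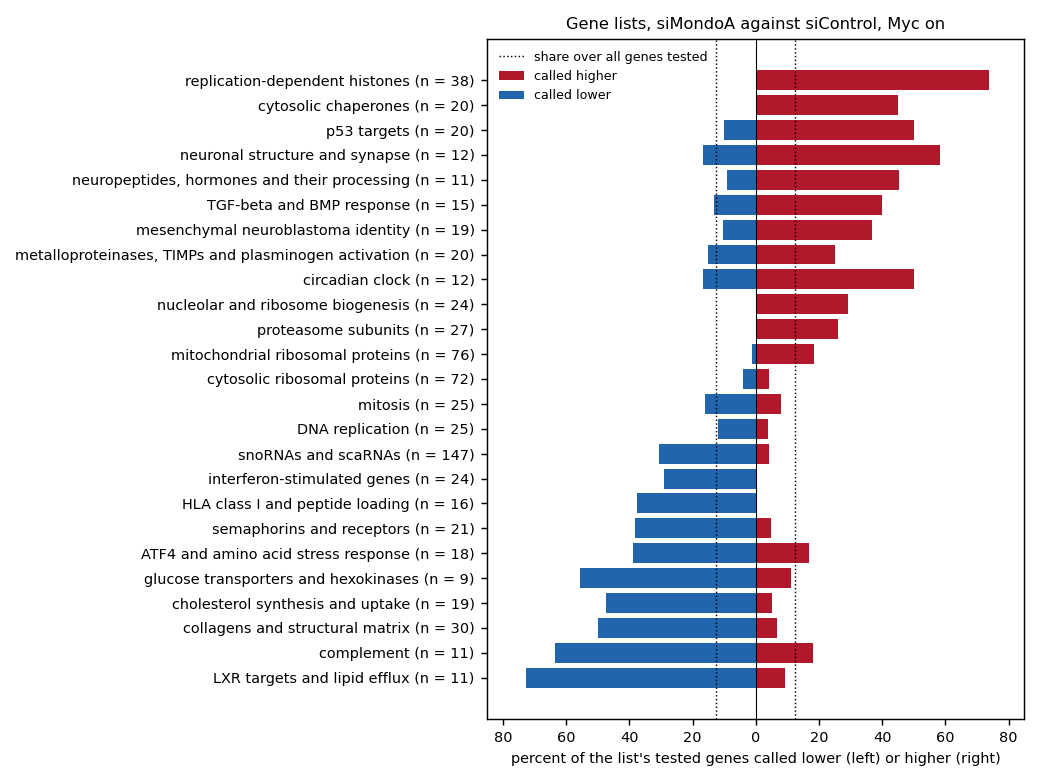
Share of the tested genes of 25 gene lists that was called higher (red, to the right) or lower (blue, to the left) with siMondoA and Myc on; dotted lines mark the 12.4% and 12.5% over all genes. The replication-dependent histones reach furthest right, 28 of 38, and the LXR targets furthest left, 8 of 11.

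The same siRNA pair in doxycycline-treated cells gave a comparison on 6 other arrays, with 43.8% of genes called. Of the 1504 genes higher with Myc on, 1029 were higher there too, which is 68.4% of the genes higher with Myc on and 38.7% of those higher with Myc off, and of the 1522 lower genes 1202 were lower there, 79% and 45%. A further 428 and 305 were not called with Myc off, and 47 and 15 were called the other way. Whether the knockdown change itself differed between the states was tested by the interaction, which passed for 1059 genes (8.7%), 627 with the Myc-on change above the Myc-off change and 432 below. This count was 686 without siControl Myc-off replicate 3, 695 without siControl Myc-on replicate 2 and 696 without siMondoA Myc-off replicate 1. Of the 1504 higher genes it passed for 130 above and 92 below, and of the 1522 lower genes for 155 above and 69 below. The interaction includes the same 6 arrays that gave the Myc-on calls, so this split is not independent of those calls. The states also differ in doxycycline itself, which cannot be told apart from Myc.

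**Figure D5:**
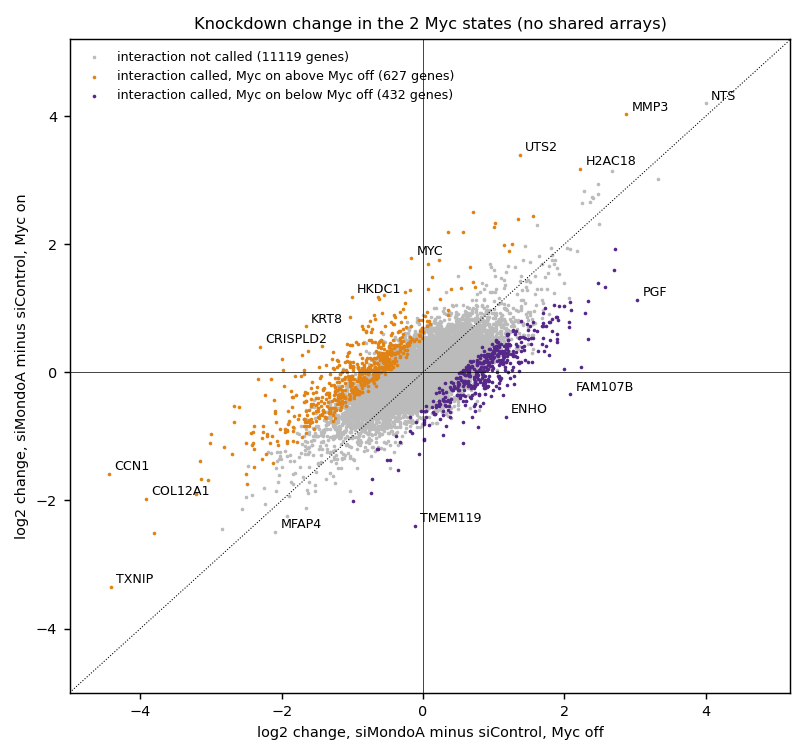
Log2 knockdown change with Myc on against that with Myc off for 12178 genes, with the dotted line at equal change. Orange and purple points are the 627 and 432 genes whose interaction passed; CCN1 (-1.58 with Myc on, -4.45 with Myc off) and PGF (1.13 and 3.03) lie far from the line, NTS (4.20 and 4.0) near it. TMEM119 is drawn at fitted values although it was below background in 3 of the 4 groups.

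NTS changed alike in the states within its error, 4.20 with Myc on and 4.0 with Myc off (difference 0.21 ± 0.25). NTSR1, its receptor, was below background on all arrays other than the 3 siMondoA arrays with Myc on, so no size is given for its difference between the states. UTS2 rose by 3.40 with Myc on and 1.37 with Myc off (2.04 ± 0.21), ANGPTL4 by 2.20 and 0.57, and TGM2, a protein cross-linking enzyme, rose by 1.76 with Myc on and did not pass with Myc off (0.22). MYC differed in its starting level. With Myc off it read 9.08, 9.07 and 9.15 with siControl and 8.97, 8.99 and 8.84 with siMondoA, so that of the 4 groups it was lowest in siControl with Myc on. Its knockdown change passed with Myc on and not with Myc off (-0.17), and the interaction was 1.95 ± 0.19 (adjusted p = 7.7e-05).

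Several other changes were smaller with Myc on, and those of KRT8 and HKDC1 had opposite directions in the states. TXNIP fell by 3.35 against a change of -4.42 with Myc off (difference 1.07 ± 0.16). CCN1 fell by 1.58 against -4.45, COL12A1 by 1.97 against -3.92, SPARC, an abundant matrix glycoprotein, by 1.10 against -2.51 and TIMP2 by 1.10 against -3.01. CDKN1A rose by 1.93 against 2.72 (-0.79 ± 0.13), and PGF, placental growth factor, by 1.13 against 3.03. KRT8, an epithelial-type keratin, went up with Myc on, from 8.45, 8.48 and 8.60 to 9.34, 9.18 and 9.19, and down with Myc off (-1.66). HKDC1 likewise had 1.18 and -1.01.

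TMEM119, a transmembrane protein studied in bone and microglia, read 7.20, 6.82 and 6.98 with siControl and was below background on all siMondoA arrays (at least 3.6-fold lower). It was also below background on all 6 arrays with Myc off, so that a fall could not be measured there. HLA-B changed by -1.52 against -0.36 (interaction -1.17 ± 0.18). INSIG1 changed by -1.28 against -0.05 (-1.23 ± 0.15), a difference that turned to 0.03 (adjusted p = 0.95) when its probes were averaged. Of the 38 histones the interaction passed for 4 above 0 and 1 below 0, and for SREBF1 (-0.19 ± 0.17) and COL1A1 (0.35 ± 0.14) it did not pass.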

How the data were processed

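RNA was measured on 12 Illumina arrays, 3 per group, and the 6 without doxycycline carry the comparison. The deposited table holds, per the file headers, a bead-summary intensity for each of 47323 probes and a detection value, a fraction equal to 1 minus the detection p-value. The authors' log2 series matrix values, for which the submitters' processing notes name lumi without a version, equal the log2 of these intensities after quantile normalization to within 5.3e-14 and were not used further. Depth on arrays is limited by their number.

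In R 4.3.3, limma 3.58.1 (neqc, offset 16) background-corrected and quantile-normalized the intensities. Probes with a detection p-value below 0.05 on at least 3 of 12 arrays were kept (22188). Symbols came from the platform annotation, where 30108 probes had 1 symbol, 8 several and 17197 none, and were updated through RefSeq (30069 matched). For each of the 3288 tested genes with several kept probes the brightest was used, leaving 12178 genes. A cell-means model over all 12 arrays (8 residual and 4.552 prior degrees of freedom) gave the knockdown contrast and its interaction with Myc state, with Benjamini-Hochberg adjustment over all genes and a threshold of 0.05. Errors are limma standard errors. A gene below background on all 3 arrays of a group is given as an "at least" fold, the bright group's mean over the dim group's mean of the higher of its own value and the lowest detected signal per array.

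Genes named were the 20 largest called changes and the 10 largest called interactions each way. Both sets were drawn only from genes without a provisional symbol whose siRNA groups with Myc on did not overlap. Also named were genes detected in 1 group only and leading members of each list, and others were chosen after their values were seen. The comparison, the 75 gene lists and the named genes were chosen with earlier results of these data known, and lists received no test. Promoter windows are RefSeq's (GRCh38.p14). The alternatives were no background correction, median scaling, other detection filters, averaged probes, 6 arrays only, a replicate block, each array left out and, added after the data were seen, scaling to the median of the genes tested. Slide and scan date are not given in the files used here.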

Additional observations from a re-analysis of the deposited data

Results flagged for a closer look

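The change in knockdown between the Myc-on and Myc-off states was tested by the interaction, and the named genes that passed are listed by the difference, Myc-on change minus Myc-off change, on the log2 scale. Each group holds 3 arrays, too few to test for outlying samples. Doxycycline and Myc state cannot be told apart in these differences.

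Among genes lower with siMondoA in both states, the change was smaller with Myc on for TXNIP (1.07), CCN1 (2.87), COL12A1 (1.96), TIMP2 (1.91), SPARC (1.41), TAPBP (1.48), CFB (1.37), C1S (0.92), SUCNR1, the succinate receptor (1.31) and PKD1L1-AS1 (1.30). The difference for TAPBP fell to 0.44 (adjusted p = 0.15 in limma) when its probes were averaged. CCN2 (2.04) and ANKRD1 (2.07), which with CCN1 are known YAP targets, PLAU, urokinase (1.98), DIO2, a thyroid hormone deiodinase (2.22), SLC27A2, a fatty acid transporter (2.14), and CRISPLD2, a secreted protein (2.71), also passed with the Myc-on change above the Myc-off change.

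The rise was larger with Myc on for UTS2 (2.04), MARCHF4 (1.79), ANGPTL4 (1.63), TMEM158 (1.26), MMP3 (1.15) and CXCL8 (1.05). TGM2 (1.54) and MYC (1.95) rose with Myc on and did not pass with Myc off. NTSR1 (1.84) also passed above 0. The histone genes H2AC6 (1.32), H2AC18 (0.96) and H2BC12 (0.89) passed in the same direction. NTSR1 was above background in the siMondoA group with Myc on alone, so its value is a difference from background levels. KRT8 (2.39) and HKDC1 (2.19) were higher with Myc on and lower with Myc off.

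The difference lay below 0 for TMEM119 (-2.28), FAM107B (-2.42), PGF (-1.90), ENHO, which encodes adropin (-1.86), IL36B (-1.81), GPRC5C (-1.67), RCOR2 (-1.63), RHOU (-1.52), RNF217 (-1.42), GALK2 (-1.40), INSIG1 (-1.23), HLA-B (-1.17), PLCXD3 (-1.15), OLMALINC (-1.03) and CDKN1A (-0.79). The values of TMEM119, above background with siControl and Myc on alone, and of IL36B, below background on all siControl arrays in both states, likewise rest on background levels and are no measured sizes. NTSR1, ANGPTL4, CDKN1A, INSIG1, HLA-B, TAPBP, TIMP2, TGM2, CFB, C1S and SPARC were named after their values were seen.

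Probes without a single gene symbol were outside the comparison of genes. Of 5803 such probes tested, 655 were called (11.3%), 233 higher and 422 lower, with changes from -2.08 to 3.28, against 18.6% of 16385 named probes.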

How the results depend on the processing

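With Myc on, the count of 3026 genes lay between 2331 (without siControl replicate 1) and 2506 (without siMondoA replicate 3) when 1 array was left out, and between 2627 and 3525 under the other alternatives. Scaling to the median of all probes kept the total (2890) and changed its split, with 710 genes lower against 1522, and 2192 of the genes called were shared. The 40 genes chosen by largest change, from those without overlap, kept direction and call in all 557 values over 14 alternatives in which they were tested. Of 453 named genes called, 374 kept their call under that scaling, 420 without background correction and 415 with probes averaged, where CD68 turned from -0.47 to 0.37 and PCNA from 0.37 to -0.01. The interaction count of 1059 became 1695 without background correction, with 778 below 0 against 432. Scaling to the median of all probes left 88 below 0, and scaling to the median of the genes tested, chosen after seeing the data, gave 718. Leaving out 1 array gave 686 to 1146, with 257 to 480 below 0. The interaction of INSIG1 turned from -1.23 to 0.03 with probes averaged, and the cause of these shifts was not tested. Replicate numbers did not pair the arrays (correlations of same-numbered deviations -0.097 to 0.083), and a replicate block gave 2881 calls with Myc on and 904 interactions.

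The limits lie in 3 arrays per group, with a median standard error of 0.15, and in dim probes: genes below 6 in mean level had 12.4% calls. MLXIP, MYCN and ARRDC4 were at background, so neither the knockdown nor the transgene is measured here.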

Other observations

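Gene groups outside the account above moved in both directions. Of 14 tubulins 3 rose and 3 fell. TUBB2A, a neuronal-type beta-tubulin, read 8.02, 7.74 and 7.87 with siControl and 9.04, 9.38 and 9.14 with siMondoA, and TUBA4A changed by -0.74. Of 22 lysosome and autophagy genes 4 rose and 4 fell (2 rose without siControl replicate 3 or siMondoA replicate 1), among them GUSB, the lysosomal beta-glucuronidase, from 11.05, 11.10 and 11.12 to 9.75, 9.87 and 9.83. In insulin and IGF signalling 4 of 15 genes rose and 3 fell (2 and 1 without siControl replicate 1, 2 and 2 without siControl replicate 3 or siMondoA replicate 3), with IRS1, an insulin receptor substrate, higher by 0.93 ± 0.14. SERPINF1, the secreted factor PEDF, fell from 8.30, 8.46 and 8.53 to 6.47, 6.42 and 6.76, and SUCNR1, a receptor for succinate, from 10.87, 10.60 and 10.69 to 8.58, 8.89 and 8.99. TMEM158, a membrane protein known as induced by Ras, went from 10.60, 10.64 and 10.74 to 12.92, 12.79 and 13.08. The siRNA groups did not overlap for TUBB2A and GUSB. They did not for SERPINF1, SUCNR1 and TMEM158 either, which was a condition of choosing those genes.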
